A study of Rattus norvegicus with 33 samples.

Results

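The cecal contents of spontaneously hypertensive rats (SHR) and Wistar Kyoto rats (WKY) were examined for species of the families Oscillospiraceae and Ruminococcaceae, leaving out the genus Faecalibacterium. The members were every row of the deposited bacterial species table that carried one of the 2 family names, which gave 17 of 5543 species, 4 of them Oscillospiraceae and 13 Ruminococcaceae, in 11 genera. Family and species names are those of the deposited table and were not checked against the reads.

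The study sequenced cecal DNA of 33 rats aged 14 to 15 weeks by shotgun sequencing. There were 10 females and 7 males of SHR, and 9 females and 7 males of WKY. SHR rats become hypertensive as they age, and WKY is the strain they are usually set against. The labels give no drug, diet or genetic manipulation for any group, and no cage, litter or sequencing batch. With 1 library per rat, the tests measure the spread between rats, and rats sharing a cage would make the p-values too small.

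Oscillospiraceae and Ruminococcaceae are strict anaerobes of the order that holds many fermenters of the large intestine. Some members, such as several Ruminococcus species, break down plant cell walls and starch, and others ferment sugars, amino acids or lactate to butyrate, the main fuel of the colon lining. Because the table gives amounts relative to a library, fewer cells of a species, less DNA per cell and more DNA of other organisms cannot be told apart.

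Between 163140 and 886827 reads per library were assigned to a taxon, with a median of 365717 in females and 547938 in males of SHR, against 706634 in females and 688051 in males of WKY. Levels are given in 2 ways. The first is the percent of all assigned reads of a rat. The second is the authors' normalized value, the reads of a species divided by a size factor of the library, and it was the scale of the tests. The scales differ between the strains, because 1 unit of size factor stood for 463129 ± 33734 assigned reads (mean ± SD) in SHR females and 462562 ± 40714 in SHR males, against 605985 ± 78957 in WKY females and 635618 ± 206281 in WKY males. A species with equal normalized values in both strains therefore has a higher percent in SHR.

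All 17 members had reads in every library, from 76 to 10396 reads, and all 17 passed the filter on low values. The most abundant was Flavonifractor plautii, a gut anaerobe known to cleave flavonoids, at a mean of 0.913 ± 0.318% of assigned reads over the 33 rats (SD). It was followed by Acutalibacter muris, an isolate of the mouse gut, at 0.564 ± 0.215%, Flintibacter sp. KGMB00164 at 0.497 ± 0.185% and Intestinimonas butyriciproducens, which forms butyrate from sugars and from lysine, at 0.487 ± 0.162%. With Massilistercora timonensis at 0.339 ± 0.116%, these 5 species held 61.6% of the members' reads. The least abundant, Oscillibacter sp. PEA192, averaged 0.0551 ± 0.0219%, and the most abundant member was 16.6 times as abundant as it. Counting error was small beside these differences. The lowest share of Flavonifractor plautii, in WKY male 6, was 0.222% with a 95% Wilson interval of 0.211% to 0.233%, and the highest, in SHR male 2, was 1.59% (1.56% to 1.62%). These intervals cover counting error only.

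The members' summed share of reads was higher in SHR than in WKY females, whereas the same sum on the normalized scale was nearly equal. In SHR females the sum ran from 3.76% to 6.01% of reads with a median of 5.25%, against 2.6% to 5.02% with a median of 3.76% in WKY females. All 10 SHR females lay above the WKY female median, and the ranges overlapped. In SHR males it ran from 4.0% to 7.18% with a median of 4.47%, against 1.35% to 6.67% with a median of 5.11% in WKY males. The WKY males were the most spread group, and only 3 of 7 SHR males lay above their median. The means were 5.08 ± 0.70% in SHR females and 3.68 ± 0.87% in WKY females, a log2 ratio of 0.46. In males they were 5.04 ± 1.13% in SHR and 4.37 ± 2.0% in WKY, a log2 ratio of 0.21, which was 0.050 without WKY male 6 and 0.34 without WKY male 3. On the normalized scale the sum averaged 23483 ± 3406 in SHR females and 21838 ± 3362 in WKY females, a log2 ratio of 0.10, and in males 23137 ± 4409 in SHR and 24594 ± 7202 in WKY, a log2 ratio of -0.09. Among the reads of Firmicutes, the phylum these families belong to, the members took 13.0 ± 3.28% in SHR females against 9.68 ± 4.37% in WKY females, and 11.8 ± 4.57% in SHR males against 8.68 ± 4.93% in WKY males. The sums are descriptions and were not tested.

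**Figure D1:**
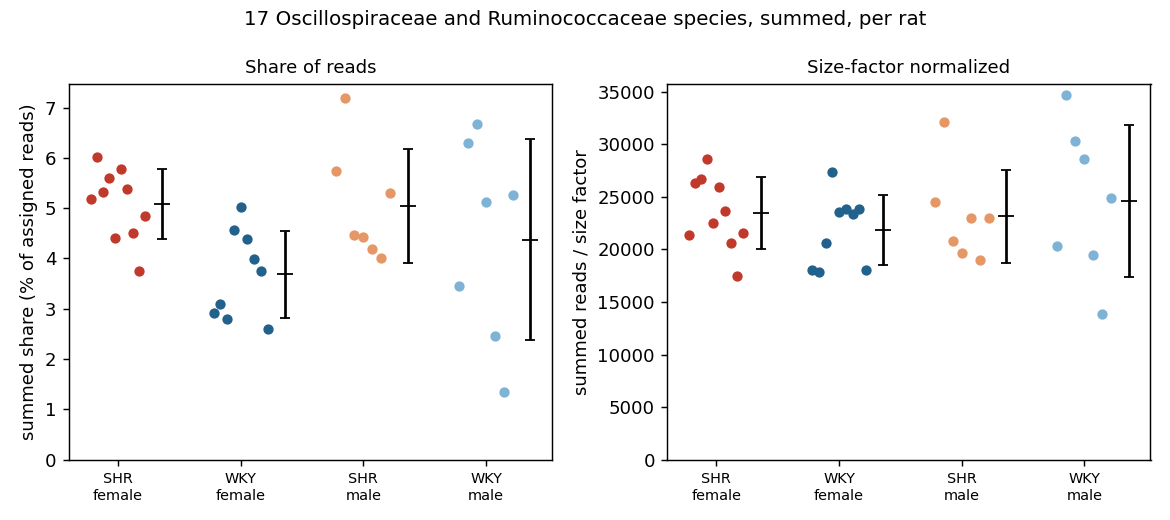
Summed level of the 17 species in each rat, as percent of assigned reads (left) and as reads divided by the size factor (right), by strain and sex. Points are rats and bars are the mean ± SD. SHR females average 5.08% and WKY females 3.68% on the left, and 23483 and 21838 on the right.

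Ruminococcus sp. JE7A12 was the only member that passed the limma test between the strains on the normalized scale, and it was less abundant in SHR. It is a strain of Ruminococcus without a species name. Its normalized value ran from 225 to 624 with a median of 361 in SHR females, against 419.9 to 1163 with a median of 862 in WKY females. All 10 SHR females were below the WKY female median. The ranges overlapped through SHR female 9 (556) and SHR female 10 (624), which had the shallowest libraries, and through WKY female 4 (453) and WKY female 6 (419.9). In males it ran from 231 to 384 with a median of 332 in SHR, against 237 to 2923 with a median of 495 in WKY. All 7 SHR males were below the WKY male median, and WKY male 2 (2923) and WKY male 3 (2023) stood far above the other WKY males.

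The strain difference was tested across 4641 bacterial species with limma, on log2 of the normalized value plus 1, in one fit of the 4 group means. A species is called where its Benjamini-Hochberg adjusted p over all species is under 0.05. Ruminococcus sp. JE7A12 was lower by a log2 fold change of -1.10 ± 0.31 (SE) in SHR females (limma, adjusted p 0.0454) and by -1.05 ± 0.24 over both sexes (limma, adjusted p 0.00518). In males the log2 fold change was -1.01 ± 0.36 (limma, adjusted p 0.181), which did not pass, and it was -0.65 without WKY male 2. On recovered whole reads the male difference passed, with an adjusted p of 0.0293 by edgeR's quasi-likelihood test and 0.00582 by DESeq2. Those fits kept WKY males 2 and 3, which stood far above the other WKY males, and were not rerun without them.

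The female call stood close to the threshold and depended on the scale. In percent, the species made up 0.0838 ± 0.0316% in SHR females against 0.135 ± 0.0397% in WKY females, and 0.0730 ± 0.0133% in SHR males against 0.186 ± 0.208% in WKY males. On that scale the log2 fold change was -0.72 ± 0.35 in females (limma, adjusted p 0.185) and -0.66 ± 0.27 over both sexes (limma, adjusted p 0.0651), neither of which passed. With 1 rat left out at a time, the call was kept in 15 of 33 fits in females and in 33 of 33 fits over both sexes.

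Thus 1 of 17 members was called in females, lower in SHR, where 2.33% of all tested species were called and 1.7% were lower. In males 0 of 17 members were called by limma, against 0.539% of all species, while 3 members had an unadjusted p under 0.05, all lower in SHR, against 13.7% of species. In males edgeR called 1 member, against 1.27% of species, and DESeq2 called 2, against 3.75%. Over both sexes 1 of 17 members was called, lower in SHR, against 5.45% of all species, with 3.45% lower. The count in each comparison is too small to set the members apart from the background. The members' median log2 fold change was 0.14 in females, -0.12 in males and 0.02 over both sexes, against -0.07, -0.02 and -0.04 over all species tested. No member's groups were free of overlap on either scale, against 0.129% of species in females and 0.409% in males on the normalized scale, and 0.431% and 0.776% in percent.

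The other Ruminococcus species had lower estimates in SHR too, and none of them passed the limma test alone. Ruminococcus champanellensis, a cellulose degrader of the human gut, ran from 578 to 1042 with a median of 746 in SHR males, against 781 to 2496 with a median of 1645 in WKY males. All 7 SHR males were below that median, and WKY males 1 to 4 (1645 to 2496) stood above WKY males 5 to 7 (781 to 909). The log2 fold change was -0.85 ± 0.25 in males (limma, adjusted p 0.0954; DESeq2, adjusted p 0.00815). In females it ran from 679 to 1526 in SHR, median 851, against 719 to 1366 in WKY, median 1042, and the log2 fold change was -0.15 ± 0.22 (limma, adjusted p 0.765). The female minus the male strain effect was 0.70 ± 0.33 on the log2 scale, which did not pass (limma, adjusted p 0.741).

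Ruminococcus bicirculans, which grows on hemicelluloses, averaged 736 ± 316 in SHR females against 1032 ± 524 in WKY females, and 570.2 ± 169 in SHR males against 808 ± 313 in WKY males. Its log2 fold change was -0.45 ± 0.26 in females and -0.45 ± 0.30 in males (limma, adjusted p 0.357 and 0.525). Ruminococcus albus, a cellulose degrader best known from the rumen, averaged 602 ± 191 in SHR females against 781 ± 197 in WKY females, and 503 ± 88.3 in SHR males against 639.5 ± 227 in WKY males. Its log2 fold change was -0.39 ± 0.21 in females and -0.28 ± 0.24 in males (limma, adjusted p 0.322 and 0.656). In percent the estimates were -0.07 in females and -0.05 in males for Ruminococcus bicirculans, and -0.01 in females and 0.13 in males for Ruminococcus albus. That of Ruminococcus champanellensis was 0.23 in females and -0.45 in males. The genus Ruminococcus, counted with reads not named to a species, was lower by -0.58 ± 0.16 in SHR over both sexes (limma over 1418 genera, adjusted p 0.0346, 3.03% of genera called). It did not pass in females (-0.46 ± 0.21, limma, adjusted p 0.251, 0.917% of genera called) or in males (-0.71 ± 0.25, limma, adjusted p 0.200). In percent the genus call over both sexes was lost, at -0.19 ± 0.20 (limma, adjusted p 0.437).

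**Figure D2:**
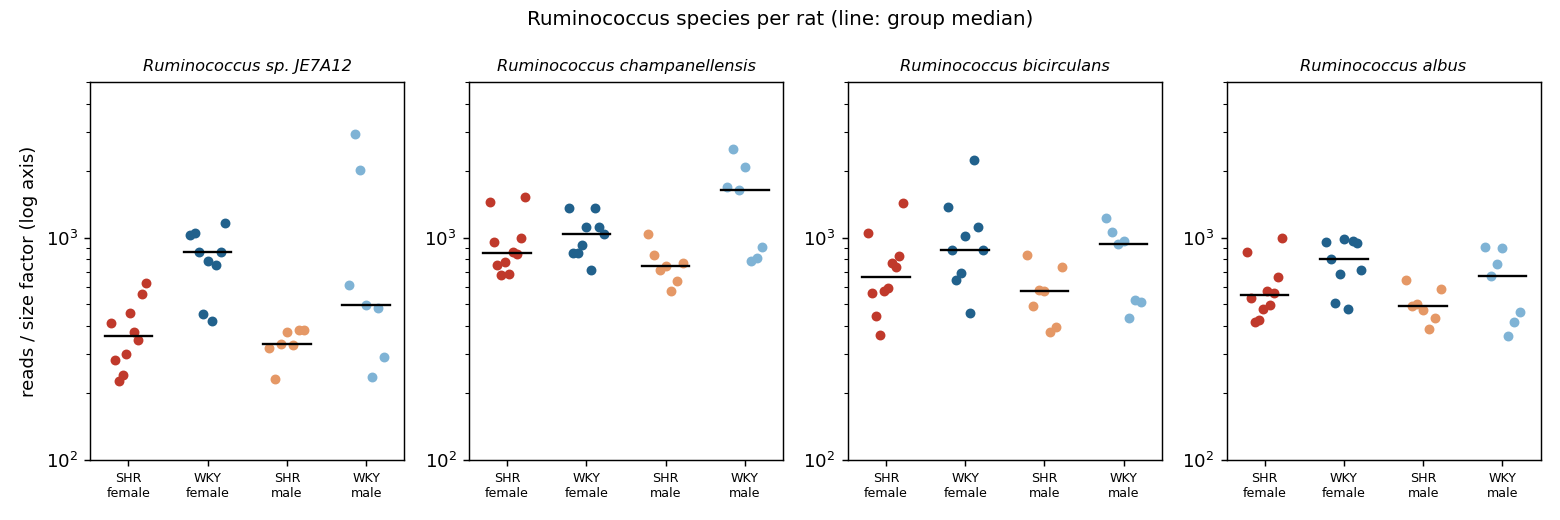
Reads divided by the size factor (log axis) of the 4 Ruminococcus species in each rat, by strain and sex, with the group median as a line. For Ruminococcus sp. JE7A12 the median is 361 in SHR females and 862 in WKY females, and 2 WKY males stand at 2023 and 2923.

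The 7 butyrate formers and relatives, a set that includes the Oscillibacter species, were the largest set among the members. Their share of the members' total was 57.8 ± 7.75% in SHR females against 54.9 ± 8.43% in WKY females, and 60.5 ± 6.01% in SHR males against 55.0 ± 6.86% in WKY males. Together they made up 2.06% to 3.75% in SHR females, median 2.99%, against 1.17% to 2.95% in WKY females, median 2.11%. In males they ran from 2.39% to 4.87% in SHR, median 2.91%, against 0.655% to 3.73% in WKY, median 2.73%. The ranges overlapped in both sexes. By limma on the normalized scale, and by edgeR and DESeq2 on recovered reads, 0 of the 7 were called in either sex. Of 4641 species, limma called 108 in females and 25 in males, edgeR 172 and 59, and DESeq2 244 and 174. With 7 species, a count of 0 does not set them apart from that background. By limma all 7 female estimates were positive but small, from 0.07 to 0.23 in log2, where 43.3% of all species were positive. The 7 species vary together, so their signs are not independent. Of 34 Lachnospiraceae species, 28 were positive in females and 14 in males. In males 3 of the 7 were positive, against 48.1% of all species, with a median of -0.02 and a range from -0.59 to 0.25.

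Flavonifractor plautii made up 0.698% to 1.37% in SHR females, median 1.12%, against 0.393% to 1.10% in WKY females, median 0.740%. In males it took 0.785% to 1.59% in SHR, median 1.05%, against 0.222% to 1.21% in WKY, median 0.877%. Its normalized log2 fold change was 0.23 ± 0.23 in females and 0.20 ± 0.26 in males (limma, adjusted p 0.640 and 0.810). Intestinimonas butyriciproducens and Dysosmobacter welbionis, a butyrate former first isolated from human feces, had normalized log2 fold changes of 0.21 ± 0.16 and 0.13 ± 0.16 over both sexes (limma, adjusted p 0.467 and 0.694). The 3 Oscillibacter members, of a genus known for valerate formation, had female estimates between 0.07 and 0.15. In males Oscillibacter sp. PEA192 was at 179 to 384 in SHR, median 221, against 173 to 670.3 in WKY, median 410.0, with a log2 fold change of -0.59 ± 0.24 that did not pass (limma, adjusted p 0.251).

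The percent scale gave a different set of calls. Over both sexes 4 of 17 members were called there, all higher in SHR, where 23.4% of all species were called and 22.6% were higher. They were Acutalibacter muris (0.73 ± 0.20, adjusted p 0.00732), Flavonifractor plautii (0.61 ± 0.21, adjusted p 0.0334), Intestinimonas butyriciproducens (0.60 ± 0.20, adjusted p 0.0264) and Dysosmobacter welbionis (0.52 ± 0.19, adjusted p 0.0443), all by limma on log2 percent. The share of members called was near that of all species. In females 1 of 17 members was called on this scale, against 7.02% of species, and in males 0 of 17 against 3.58%. An unadjusted p under 0.05 was found for 9 members in females, 1 in males and 12 over both sexes, against 25.6%, 23% and 38.2% of all species. At the level of genera, 8 of the members' 11 genera were called over both sexes in percent, all higher in SHR and Ruminococcus not among them, against 37.7% of all genera. The median log2 fold change over all species on the percent scale was 0.30 in females and 0.37 in males, against 0.52 and 0.29 over the members.

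Acutalibacter muris had the largest positive estimate among the members in females. It ran from 0.422% to 0.918% in SHR females, median 0.721%, against 0.287% to 0.506% in WKY females, median 0.372%. All 10 SHR females lay above the WKY female median, and the ranges overlapped. In males it ran from 0.434% to 0.990% in SHR, median 0.670%, against 0.173% to 0.781% in WKY, median 0.590%. The female log2 fold change was 0.86 ± 0.26 in percent (limma, adjusted p 0.0332) and 0.48 ± 0.20 on the normalized scale (limma, adjusted p 0.195; DESeq2, adjusted p 0.0247).

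**Figure D3:**
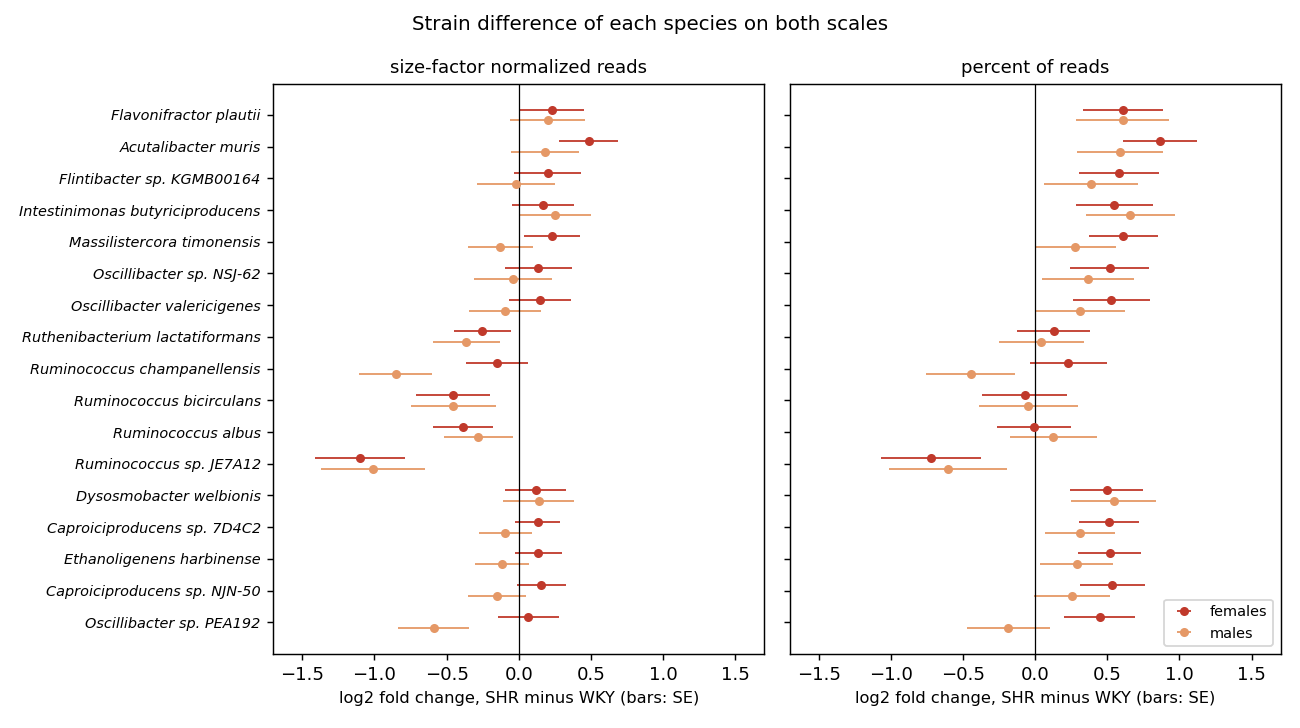
Log2 fold change of SHR minus WKY for each of the 17 species, in females and in males, on the normalized scale (left) and in percent of reads (right). Points are limma estimates and bars are standard errors. Most species sit near 0 on the left and above 0 on the right, and Ruminococcus sp. JE7A12 lies below 0 on both.

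The remaining species showed no strain difference that passed on the normalized scale. Ruthenibacterium lactatiformans, a lactate former isolated from human feces, averaged 1014 ± 212 in SHR females against 1236 ± 436 in WKY females, and 913 ± 167 in SHR males against 1207 ± 337 in WKY males. All 7 SHR males lay below the WKY male median. Its log2 fold change was -0.25 ± 0.20 in females and -0.36 ± 0.23 in males (limma, adjusted p 0.537 and 0.512). Massilistercora timonensis had estimates of 0.23 ± 0.20 in females and -0.13 ± 0.23 in males (limma, adjusted p 0.572 and 0.872). The 2 Caproiciproducens species, of a genus known for caproate formation, and Ethanoligenens harbinense, which ferments sugars to ethanol and hydrogen, had estimates from 0.13 to 0.15 in females and from -0.15 to -0.09 in males.

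Between the sexes no member passed. Female minus male estimates ran from -0.12 to 0.31 in SHR, where 0 of 17 members were called by limma, edgeR or DESeq2 and 0 had an unadjusted p under 0.05. In all species 0 were called there by limma, edgeR or DESeq2, with 3.60% at an unadjusted p under 0.05 by limma. In WKY they ran from -0.57 to 0.33, again with 0 of 17 members called by limma, edgeR or DESeq2. Over all species limma called 0.711% there, edgeR 79 of 4641 and DESeq2 175 of 4641. By limma 1 member had an unadjusted p under 0.05, against 14% of species. It was Oscillibacter sp. PEA192 (-0.57 ± 0.23, limma, adjusted p 0.248), with normalized means of 254 ± 75.9 in WKY females and 393 ± 160.1 in WKY males. By edgeR 1 member had an unadjusted p under 0.05, against 809 of 4641 species. By DESeq2 4 members had one, all lower in females, against 857 of 4641 species. In the test of whether the strain effect differed by sex, 0 members were called by limma, edgeR or DESeq2. Each of these tests called 1 of 4641 species (0.0215%). By limma 2 members had an unadjusted p under 0.05, against 6.64% of species.

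Within groups, members of the same set varied together from rat to rat. Each log2 normalized value was taken as its deviation from the group mean, and all 136 pairs of members were correlated over the 33 rats with 100000 permutations within groups. The 21 pairs among the 7 butyrate formers and relatives had a median Pearson's r of 0.91 (0.75 to 0.98). The 6 pairs among the 4 Ruminococcus species had a median of 0.73 (0.52 to 0.90). The 28 pairs between both sets had a median of -0.16 (-0.37 to 0.06). Medians on the centred log-ratio scale, which takes each library relative to its own mean log value, were 0.90, 0.73 and -0.18. On the normalized scale the median over all 136 pairs was 0.38. A further set, of the Caproiciproducens species and Ethanoligenens harbinense, had medians of 0.82 within it and 0.34 with either of the other sets.

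The strongest pair was Flavonifractor plautii with Intestinimonas butyriciproducens, with Pearson's r of 0.98 and Spearman's rho of 0.98. The permutation p was 1e-05 for both, the smallest these permutations can give, with Benjamini-Hochberg adjusted values of 4.5e-05 and 4.7e-05 over the 136 pairs. Without the 2 rats farthest from the median in Flavonifractor plautii, r was 0.97. Within the groups r ranged from 0.95 in SHR females to 0.99 in WKY males. Ruminococcus bicirculans with Ruminococcus albus had r of 0.90 and rho of 0.92 (permutation p 1e-05 for both, adjusted 4.5e-05 and 4.7e-05). Their r was 0.92 without the 2 rats most extreme in Ruminococcus bicirculans, and ran from 0.85 in WKY females to 0.97 in SHR males. These pairs were chosen after their values were seen. Ruminococcus sp. JE7A12 followed its genus less closely, with r of 0.61 and rho of 0.49 against Ruminococcus champanellensis (permutation p 0.0041 and 0.011, adjusted 0.0107 and 0.0258). That r was 0.44 without the 2 rats most extreme in Ruminococcus champanellensis, chosen without regard to Ruminococcus sp. JE7A12. Within groups it was 0.62 among SHR females and -0.36 among SHR males, and 0.45 among WKY females and 0.75 among WKY males. Reads of close relatives may be assigned to more than one of these species, and their part in these correlations was not tested. All points also share their libraries and depths.

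**Figure D4:**
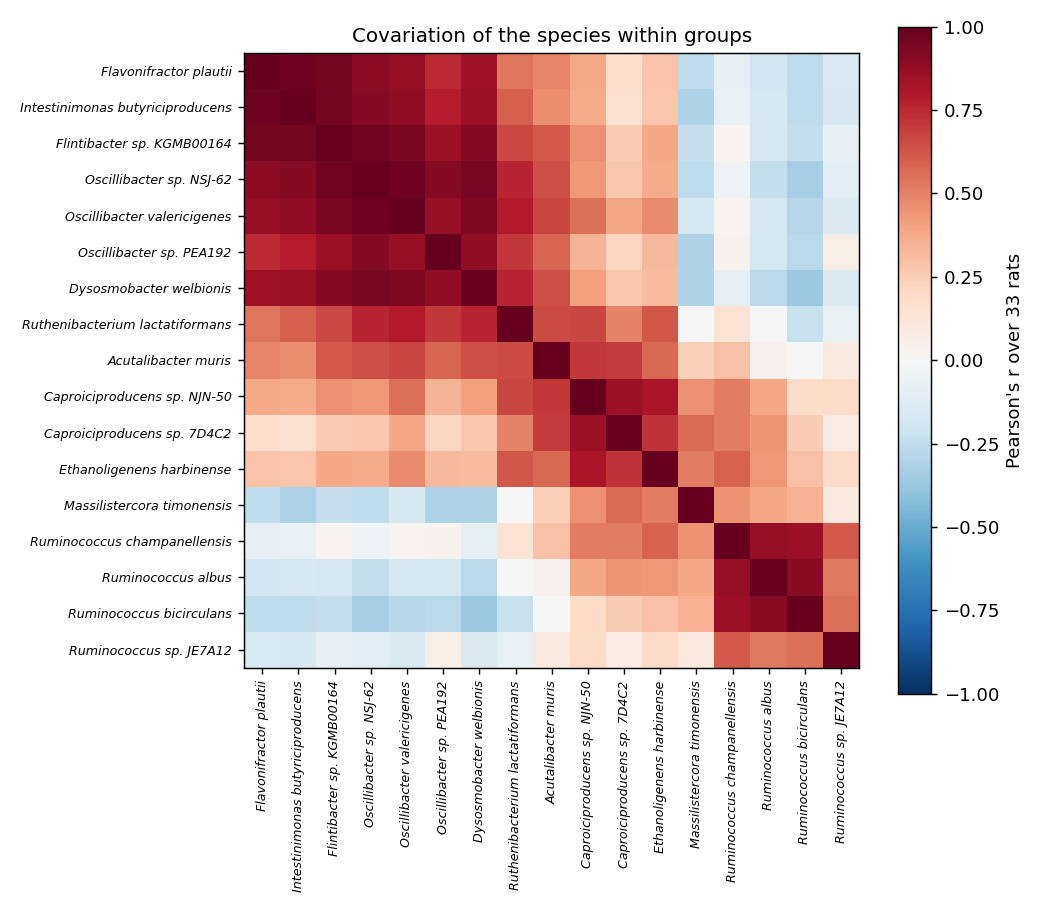
Pearson's r over 33 rats between each pair of the 17 species, from deviations of log2 normalized values from group means. Red is positive and blue negative. The 7 butyrate formers and relatives form the red square at the upper left (median r 0.91) and the 4 Ruminococcus species the one at the lower right (median r 0.73).

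The balance between Ruminococcus and the butyrate formers and relatives was taken in each rat. It is log2 of the reads of the 4 Ruminococcus species over those of the other 7, a ratio that does not depend on how the library is scaled. It ran from -3.49 to -1.20 with a median of -2.58 in SHR females, against -2.87 to -0.62 with a median of -1.83 in WKY females. In males it ran from -3.41 to -2.24 with a median of -2.44 in SHR, against -2.85 to -1.08 with a median of -1.66 in WKY. The means were -2.38 ± 0.78 in SHR females and -1.73 ± 0.74 in WKY females, and -2.68 ± 0.46 in SHR males and -1.88 ± 0.68 in WKY males. All values were negative, so Ruminococcus reads were the smaller part in both strains. On average the ratio was lower in SHR than in WKY of both sexes, with overlapping ranges. The ratio is built over members whose values were known and was not tested.

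**Figure D5:**
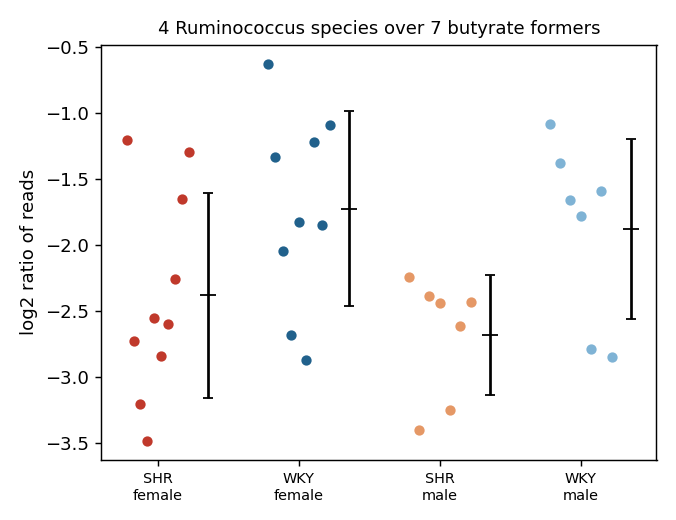
Log2 ratio of the reads of 4 Ruminococcus species to those of 7 butyrate formers and relatives in each rat, by strain and sex, with mean ± SD. Mean values are -2.38 in SHR females and -1.73 in WKY females, and -2.68 in SHR males and -1.88 in WKY males.

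Counts for other families of the same phylum also depended on the scale. On the normalized scale over both sexes, where 5.45% of all species were called, 21 of 53 Clostridiaceae species were lower in SHR and 1 was higher, and 19 of 94 Lactobacillaceae species were lower. Of 34 Lachnospiraceae and 9 Hungateiclostridiaceae species 0 were called by limma, with median log2 fold changes of 0.04 and -0.03 beside the members' 0.02. In percent, where 23.4% of all species were called, 12 Clostridiaceae species were lower and 7 higher, and 8 Lactobacillaceae species were lower and 3 higher. On that scale 14 of 34 Lachnospiraceae and 3 of 9 Hungateiclostridiaceae species were called, all higher in SHR. Differences between the families were not tested.

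The authors' deposited tables of their own models hold 1 member when rows are read by taxon ID, and it is Ruminococcus sp. JE7A12. In the authors' deposited table for females it has a log2 fold change of 1.10 with a standard error of 0.225 and an adjusted p of 0.000167, and in the authors' deposited table for all rats 1.40 with a standard error of 0.349 and an adjusted p of 0.000184. The table for males holds no member, and the tables end just below an adjusted p of 0.01. The direction of the authors' deposited log2 fold changes is not stated in the sources used here, and they run opposite to SHR minus WKY in 187 of 187 female, 33 of 33 male and 326 of 383 all-rats species read by ID.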

How the data were processed

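DNA of cecal contents was extracted with a bead-based soil kit and made into Nextera libraries, per the labels' protocols. FastQC 0.11.5, cutadapt 2.6, Trimmomatic 0.36 and DESeq2 were used, per the submitters' processing notes. For the assignment of reads, tool and database were not given in the sources used here. The authors deposited species and genus tables in percent of reads, and a normalized signal, the reads of a taxon divided by a size factor. The authors also deposited log2 fold changes, standard errors, p-values and mean normalized signal of their models, which neither set the groups nor entered the tests here.

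The members and lists were chosen with earlier results of these data known. In each library, 100% of values were whole multiples of the smallest nonzero value, taken as 1 read (tolerance 0.01 read). Reads recovered from the percent and the normalized tables were equal in 100% of values. The design foresaw this normalized signal: limma (trend, robust) was fitted on log2(normalized value + 1), which understates the change of low species. Species were kept where at least 7 samples reached 10, which left 4641 of 5999. Genera were fitted the same way (1418 of 1455). edgeR and DESeq2 were run on the recovered reads as alternatives, edgeR calling 172 species in females and 59 in males and DESeq2 244 and 174. Before taking log2, the percent scale added less than 1 read, as a share of the median library. All tests were 2-sided. The fit was tested on simulated data. Named species were the 12 most abundant members, every called member, the 3 largest rises and falls in each sex, and a list of known species. Dysosmobacter welbionis and the Caproiciproducens species fell outside that rule and were named after their values were seen, to account for every member. Other alternatives were the percent and centred log-ratio scales, other pseudocounts and filters, limma without trend and robust estimation, thinning, only the groups compared, and leaving out the shallowest libraries or each rat in turn. No value column belonged to a sample without a group. The alternatives used edgeR 4.0.16 and DESeq2 1.42.0 beside limma 3.58.1 in R 4.3.3. Tables were handled with pandas 2.3.3 and numpy 2.4.6 in Python 3.11.15, correlations with scipy 1.17.1 and figures with matplotlib 3.10.9.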

Additional observations from a re-analysis of the deposited data

Results flagged for a closer look

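In 10 of 72 tested sets of values (an item in a group, not members alone), the highest or lowest rat stood apart from its group by Dixon's criterion. Chance alone meets this criterion in about 1 in 20 sets. Of the 10, 6 were the same rat, and species that vary together are not independent sets. SHR male 2 was the highest SHR male for Flintibacter sp. KGMB00164 (0.990% of reads), Intestinimonas butyriciproducens (0.859%), Oscillibacter sp. NSJ-62 (0.667%), Oscillibacter valericigenes (0.446%), Dysosmobacter welbionis (0.237%) and Oscillibacter sp. PEA192 (0.0859%). SHR female 1 was the highest SHR female for Massilistercora timonensis (0.697%) and Ethanoligenens harbinense (0.118%). WKY female 7 was the highest WKY female for Ruminococcus bicirculans (0.380%), and WKY female 5 for Ethanoligenens harbinense (0.0854%).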

How the results depend on the processing

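In females the count of 1 member called became 0 on the centred log-ratio scale (81 of 4641 species called). It became 0 with limma without trend and robust estimation (98 of 4641), and 2 with DESeq2 (244 of 4641). On the percent scale (326 of 4641) and after thinning (69 of 4966) it stayed 1 but was Acutalibacter muris, with Ruminococcus sp. JE7A12 at adjusted p 0.185 and 0.229. After thinning the members' median log2 fold change in females was 0.52, as in percent, against 0.14 on the normalized scale. Thinning therefore did not separate depth from scale. In males the count of 0 became 1 with edgeR (59 of 4641), 2 with DESeq2 (174 of 4641) and 1 with a filter at 50 (26 of 866). Over both sexes the count of 1 became 4 in percent, 4 after thinning to the shallowest library (485 of 4966 species called), 2 with edgeR (444 of 4641), 3 with DESeq2 (535 of 4641), 2 with a filter at 50 (97 of 866) and 2 without the 3 shallowest libraries (398 of 4585). The count of members' genera in females became 2 in percent (154 of 1418 genera called) and 1 with DESeq2 (52 of 1418). The summed share in females had a log2 ratio of 0.105 as a normalized sum.

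With 1 rat left out at a time, the count ran from 0 to 1 in females, 0 to 1 in males, 1 to 2 over both sexes, and stayed 0 between the sexes and for strain by sex. The female call of Ruminococcus sp. JE7A12 was lost without any one of SHR females 1 to 8, SHR males 1, 3 and 7, and WKY females 1, 2, 3, 5, 7, 8 and 9. Ruminococcus champanellensis passed in males without WKY male 7 (adjusted p 0.0402). It passed over both sexes without SHR female 1, SHR female 10, WKY female 6, or WKY male 5, 6 or 7. The summed share's log2 ratio ran from 0.411 to 0.530 in females, 0.0496 to 0.339 in males, -0.0394 to 0.115 between the sexes of SHR and -0.404 to -0.114 between those of WKY. No called value changed sign under the alternatives run. No paired analysis was possible because the replicate numbers only name rats and do not pair them across groups. Cage, litter and the order of processing are not in the labels, and SHR libraries were the shallower ones, so depth and strain are partly confounded.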

Other observations

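Ruminococcus sp. JE7A12 was also lower in SHR females relative to its own genus. The log2 ratio of its reads to those of the other 3 Ruminococcus species ran from -3.03 to -2.02 with a median of -2.62 in SHR females, against -2.60 to -1.18 with a median of -1.88 in WKY females. In males the medians were -2.44 in SHR and -2.65 in WKY, with WKY males spread from -2.99 to -0.53. The male means ran the other way, at -2.44 ± 0.42 (SD) in SHR and -2.03 ± 1.02 in WKY. The ratio was not tested.

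The names and the taxon IDs in the authors' deposited tables of model results do not match row by row. In the authors' deposited table for all rats, the mean normalized value equals that of the species with the same ID within 0.1% in 383 of 383 rows, and that of the species with the printed name in 2 of 386. In the tables for females and males 0 of 187 and 0 of 33 means match by ID that closely, but 187 of 187 and 33 of 33 lie within 1.5-fold, against 49 of 189 and 10 of 33 by printed name. The row of Ruminococcus sp. JE7A12 read by ID has a mean of 555 in the authors' deposited table for females, beside 589 computed here. The row of Ruminococcus sp. JE7A12 is printed in the table for all rats as Bifidobacterium animalis, and in the table for females as Agrococcus jejuensis. Read by printed name, the authors' deposited tables give Ruminococcus sp. JE7A12 a log2 fold change of 4.77 in females and -5.12 in all rats, on mean values of 4.48 and 83.7, against 589 in females and 624.5 in all rats for the species itself in the normalized table.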
